A study of Mus musculus with 9 samples.

Results

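Long intergenic noncoding RNA (lincRNA) regions are stretches of the genome between protein-coding genes, known or predicted to be transcribed, that the array names only by chromosome, start and end on the mm9 build and by orientation (F or R). The regions described here span at least 10000 bases and were selected on detection. At least 1 probe had to be well above background, as the scanner software calls it, on all 6 deletion arrays or on controls 1 and 3. Of 2408 such regions on the array, 1680 passed and 728 did not. They are part of 4607 lincRNA regions of any length and of 36315 genes and regions on the array. By both parts of the rule 1455 entered, 116 by the deletion arrays alone and 109 by the controls alone. Each region is represented by 1 probe, the one with the highest mean over the 9 deposited columns, and in 1662 of the 1680 that probe itself passed. Both orientations of 474 intervals are among the 1680, so they cover 1206 intervals.

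Expression was measured in LSK cells (lineage-negative, Sca1-positive, cKit-positive), the bone marrow fraction that holds haematopoietic stem cells and early progenitors. All mice were female and of the strain Gt(ROSA)26Sor CreERT2, whose Cre recombinase is expressed from the Rosa26 locus and acts once tamoxifen is given. The 3 groups of 3 arrays each are a control with the Cre and no floxed allele named, Drosha fl/fl and Dicer fl/fl, called Drosha-deleted and Dicer-deleted below. Cells of all groups, controls included, were held for 72 h in 250 nM 4OH-tamoxifen with 10 ng/mL IL-3, 10 ng/mL IL-6, 50 ng/mL SCF and 10% serum, at 50000 cells per well. The labels do not say that the arrays of a group came from separate animals, so p-values measure the spread between these samples, which may be technical.

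Drosha and Dicer act in sequence in microRNA maturation. Drosha cuts the hairpin out of a long nuclear transcript, the primary microRNA, and Dicer then cuts the exported hairpin down to the mature RNA that guides silencing. Many microRNA genes lie between protein-coding genes, and their primary transcripts are themselves long noncoding RNAs, so an array that tiles intergenic transcription can hold probes on them. Loss of Drosha leaves primary transcripts uncut, whereas loss of Dicer acts after that cut.

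The targeted genes were examined before the regions. Drosha stood at 2.65 and 2.78 in controls 1 and 3, at -0.67, -0.47 and 0.03 in the Drosha-deleted samples and at 2.65, 2.93 and 2.57 in the Dicer-deleted ones, as log2 signal less the 75th percentile of the array, the scale of every level below. It fell by 3.08 against the control (limma, adjusted p = 0.00859). Dicer1 was lower in all 3 Dicer-deleted samples (-0.31, -0.15 and -0.42) than in the controls (0.67 and 1.30) without passing the threshold of 0.05 (difference -1.28, adjusted p = 0.325), and where its probe lies relative to the deleted part is not known from the labels. All 7 markers of the labelled fraction on the list were detected on the 8 arrays fitted. Markers of other blood cell types were detected on these 8 too, several of them brighter. In control 1, Pf4 (megakaryocyte) stood at 8.99, Mpo (granulocyte) at 8.46 and Cpa3 (mast cell) at 5.28. Kit stood at 2.63, Ly6a at 2.89 and Cd34 at 5.67 there. Other markers were dim, such as Klf1 (erythroid) at -2.87, and some on the list were not tested. No marker of the fraction or of other blood cell types passed in any comparison of scanner values, and 1 monocyte marker passed in the authors' values between Drosha-deleted and control cells. The scanner values of control 2 stood apart: 93.2% of its probes were called well above background, against 54.2% to 62.3% on the others, and 18.9% of its spots were flagged as non-uniform. Its scanner file was therefore left out of the fits below, and its deposited column enters only where the authors' values are named. Control 3 alone was on another slide, and the effect of that slide cannot be told apart from that of the sample.

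The sequences that follow are those on which the results turn. The mature microRNAs, from RefSeq on GRCm38.p6, are grouped by seed, bases 2 to 8, shown in capitals. They belong to microRNA genes beside regions with a probe past the threshold in the comparison of the deletions, in scanner values or, for miR-221 and miR-222, in the authors' values alone. Entries for miR-30b and miR-30d were not used here.
mmu-let-7c-5p: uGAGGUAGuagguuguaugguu
mmu-let-7b-5p: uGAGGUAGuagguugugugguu
mmu-miR-15a-5p: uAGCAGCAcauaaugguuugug
mmu-miR-16-5p: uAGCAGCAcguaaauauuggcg
mmu-miR-322-5p: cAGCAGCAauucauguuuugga
mmu-miR-363-3p: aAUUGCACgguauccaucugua
mmu-miR-92a-3p: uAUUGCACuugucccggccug
mmu-miR-17-5p: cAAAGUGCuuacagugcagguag
mmu-miR-106a-5p: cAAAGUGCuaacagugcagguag
mmu-miR-221-3p: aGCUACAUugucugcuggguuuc
mmu-miR-222-3p: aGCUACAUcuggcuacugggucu
mmu-miR-101a-3p: uACAGUACugugauaacugaa

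Seeds are shared across regions: miR-15a, miR-16 and miR-322 carry AGCAGCA, and miR-17 and miR-106a carry AAAGUGC. Within 1 region of the X chromosome, miR-363 and miR-92a, listed here from the miR-92-2 gene, carry AUUGCAC. Array probes are 60 bases long. In 5 of the probes below the stretch shared with a RefSeq microRNA hairpin of the same strand is in capitals, and in the miR-18 probe it matches the complementary strand. The last pair, which shares no such stretch, is all in lower case.
let-7c-2 5′ arm, chr15:85537022-85537081, forward: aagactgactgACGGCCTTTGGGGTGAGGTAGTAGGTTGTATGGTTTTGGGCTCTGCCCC
let-7c-2 3′ arm, chr15:85537092-85537151, forward: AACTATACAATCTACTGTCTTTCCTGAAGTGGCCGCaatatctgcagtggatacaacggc
miR-363 3′ arm, chrX:50094854-50094913, reverse: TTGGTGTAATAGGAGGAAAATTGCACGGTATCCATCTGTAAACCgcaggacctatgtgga
miR-363 5′ side, chrX:50094914-50094973, reverse: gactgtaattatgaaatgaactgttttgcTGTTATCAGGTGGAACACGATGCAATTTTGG
miR-92-2 3′ end, chrX:50094976-50095035, reverse: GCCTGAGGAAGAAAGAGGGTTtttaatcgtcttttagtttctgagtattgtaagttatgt
miR-18 opposite strand, chr14:115443139-115443198, reverse: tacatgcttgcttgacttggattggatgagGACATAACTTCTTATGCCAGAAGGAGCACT
miR-15a/16-1 region, chr14:62262197-62262256, reverse: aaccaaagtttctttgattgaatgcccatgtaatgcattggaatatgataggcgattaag
miR-101a region, chr4:101019147-101019206, reverse: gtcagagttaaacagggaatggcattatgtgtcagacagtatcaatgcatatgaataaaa

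The comparison of Drosha-deleted with Dicer-deleted cells asks which regions differ between loss of the nuclear and of the cytoplasmic step. The difference itself uses neither control. Its p-value does, because all 3 groups, controls 1 and 3 included, share 1 estimate of the spread. The detection rule, which took the 6 deletion arrays together, did not use this comparison. With 1 probe per region, 2 of the 1680 regions were higher in Drosha-deleted cells and 0 were lower, where 0.013% of all 23034 genes and regions tested were higher and 0.00868% lower (limma, Benjamini-Hochberg adjustment over all of them). At an unadjusted p under 0.05, 23 of the 1680 (1.37%) were higher and 27 (1.61%) lower, below the 2.55% and 2.01% of all features. The median difference over the regions was 0.04, beside -0.02 over all features tested. Both regions that passed lie beside microRNA genes, at miR-15a/16-1 on chromosome 14 and at miR-101a on chromosome 4.

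**Figure D1:**
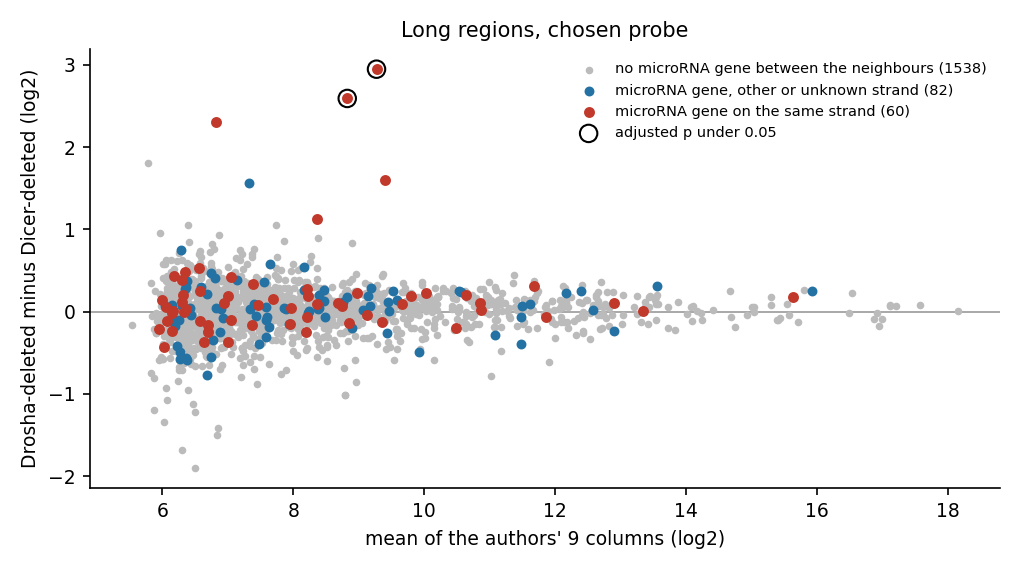
Each point is 1 of the 1680 long regions, with the mean of the authors' 9 columns (log2) across and the Drosha-deleted minus Dicer-deleted difference (log2) upwards; colour gives the presence and strand of a microRNA gene between the same neighbours, and rings mark regions past the threshold. The ringed points at 2.59 and 2.95 are the regions beside miR-15a/16-1 and miR-101a, both on the strand of the microRNA gene.

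The chromosome 14 region (chr14:62254361-62301162_R) lies between Kcnrg and Dleu7, where the long noncoding RNA Dleu2 is known to host miR-15a and miR-16-1. Its level was -1.21 and -1.06 in controls 1 and 3. It was 1.48, 1.13 and 1.14 in the Drosha-deleted samples. In the Dicer-deleted samples it was -1.15, -1.70 and -1.17. All 3 Drosha-deleted samples were above all other arrays, and Dicer-deleted and control samples overlapped. The Drosha-deleted minus Dicer-deleted difference was 2.59 (SE 0.203, adjusted p = 0.0155), a 6.03-fold difference, and in the authors' values 2.45 (adjusted p = 0.00128). Against the control the region rose by 2.39 in Drosha-deleted cells (SE 0.226, adjusted p = 0.0212). The Dicer-deleted minus control difference was -0.21 (adjusted p = 0.737). A second probe at the start of the region, at chr14:62254362-62254421, stood at 0.85, 0.51 and 0.61 in Drosha-deleted samples and at -2.11, -2.57 and -1.84 in Dicer-deleted ones.

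The chromosome 4 region (chr4:101010948-101032148_R) lies between Jak1, a cytokine receptor kinase, and Ak4, an adenylate kinase of mitochondria. Its level was -1.43 and -0.48 in controls 1 and 3. In the Drosha-deleted samples it was 1.81, 1.60 and 1.69. In the Dicer-deleted samples it was -1.08, -1.30 and -1.37. Again the Drosha-deleted samples lay above all others, and the Dicer-deleted samples lay between the 2 controls. The Drosha-deleted minus Dicer-deleted difference was 2.95 (SE 0.247, adjusted p = 0.0196), 7.72-fold, and in the authors' values 2.88 (adjusted p = 0.00159). The rise over the control was 2.65 in Drosha-deleted cells (SE 0.277, adjusted p = 0.0347), and the Dicer-deleted minus control difference was -0.30 (adjusted p = 0.687). Leaving out any 1 of the 6 deletion arrays kept the sizes of both regions (2.41 to 2.69 on chromosome 14, 2.89 to 3.03 on chromosome 4) and raised the adjusted p above the threshold, to between 0.0656 and 0.102 and between 0.0987 and 0.14.

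**Figure D2:**
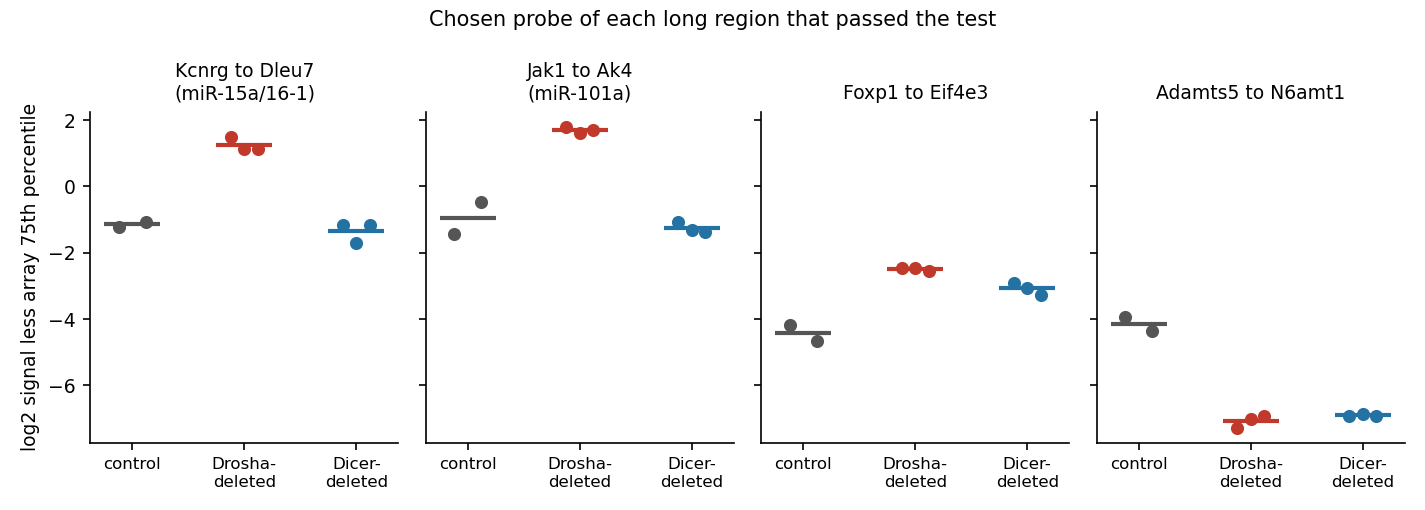
Levels on each of the 8 fitted arrays (log2, 75th percentile of the array subtracted) of the 4 long regions that passed against control, with 1 point per array and a line at each group's mean. The Drosha-deleted samples of the miR-15a/16-1 region sit between 1.13 and 1.48, above every other array of that region, and in the region between Adamts5 and N6amt1 both deletion groups sit below the controls.

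Regions hold several probes, a median of 5 for the 1680 and up to 10, and the probe with the highest mean need not be the one that differs. A fit on each of 31510 probes, chosen after the data had been seen, was therefore added. The long regions hold 4002 of these probes. Of the 4002, 14 probes of 7 long regions were higher in Drosha-deleted than in Dicer-deleted cells, where 0.105% of all probes were. In the other direction 1 probe was lower, where 0.0127% were. The 7 regions are those beside miR-15a/16-1, miR-101a, let-7b/let-7c-2, miR-30b/miR-30d, miR-17 to miR-92-1, miR-106a to miR-363 and miR-322 to miR-503, each named for microRNA genes that lie between the same pair of protein-coding genes. In all 14 probes the lowest Drosha-deleted sample was above the highest Dicer-deleted sample and above controls 1 and 3. The differences ran from 2.58 to 4.60. Against the control the same probes were 2.37 to 4.67 higher in Drosha-deleted cells, with 13 of 14 past the threshold, and the Dicer-deleted minus control differences ran from -0.43 to 0.60 (lowest adjusted p = 0.538). In the authors' values all 14 passed, with differences of 1.05 to 3.35, where 0.14% of all probes were higher.

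All 14 probes were well above background on the 3 Drosha-deleted arrays, but only 7 on all 6 deletion arrays. Another 3 were so on only 1 or 2 Dicer-deleted arrays. A probe that was detected through the Drosha-deleted group alone had to differ, so the count of 14 is a description of where detected probes lie. For the 4 probes that were well above background on no Dicer-deleted array, differences are against signals at background. Their fold is given below as a bound, with no p, in which a dim array counts at the lowest signal detected on it or at the probe's own signal if that was higher. Without Drosha-deleted replicate 2 the number past the threshold was 1, the miR-30b/miR-30d probe at chr15:68172634-68172693. It was 6 without Drosha-deleted replicate 1 and 6 without replicate 3. Without Dicer-deleted replicates 1, 2 or 3 it was 10, 8 and 9. All 14 differences remained above 0 in each of these fits.

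**Figure D3:**
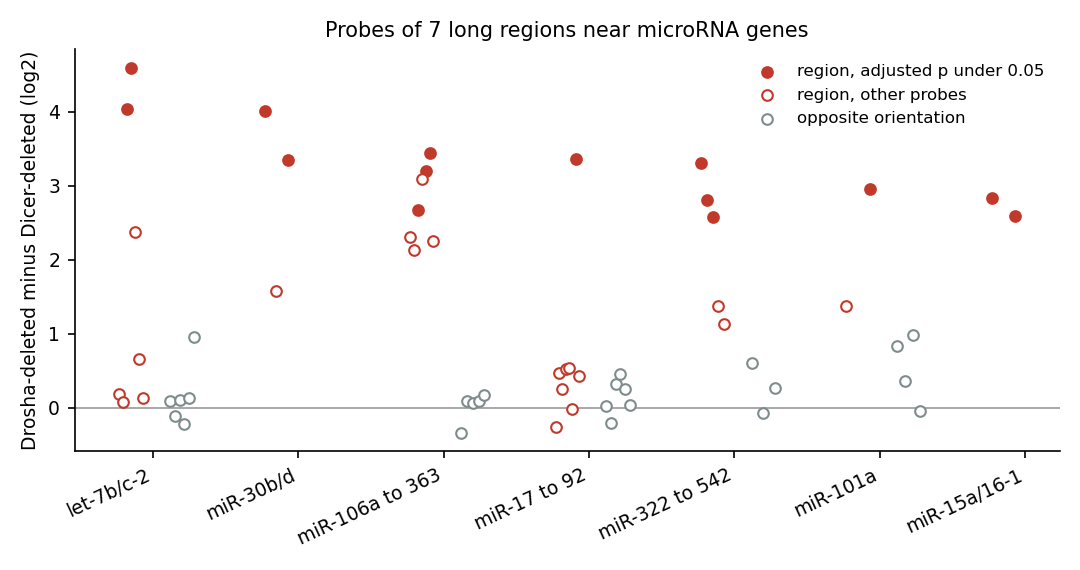
Drosha-deleted minus Dicer-deleted difference (log2) of each tested probe in the 7 long regions with a higher probe, 1 position per region, with filled red points past the threshold, open red points not past it and grey points from the opposite orientation. Within the let-7b/let-7c-2 region the red points run from 0.08 to 4.60, and the grey points of all regions from -0.34 to 0.98.

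The clearest case of probes that differ within 1 region was the let-7b/let-7c-2 region (chr15:85412264-85549139_F) between Wnt7b, a secreted Wnt ligand, and Ppara, a nuclear receptor of fatty acid metabolism. The let-7 microRNAs are known as regulators of differentiation and growth. The probe on the let-7c-2 5′ arm, which holds the whole of let-7c-5p, stood at -4.51 and -4.19 in controls 1 and 3. It stood at 0.80, 0.35 and -0.53 in Drosha-deleted samples and at -3.81, -3.55 and -4.11 in Dicer-deleted ones. Drosha-deleted samples were thus far above both other groups, which lay close together. The difference was 4.03 (SE 0.338, adjusted p = 0.0081), 16.4-fold.

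The probe on the 3′ arm, which holds let-7c-2-3p, stood at -5.43 and -5.0 in the controls, at 0.01, -0.31 and -1.33 in Drosha-deleted samples and at -5.16, -4.85 and -5.40 in Dicer-deleted ones. It was well above background on no Dicer-deleted and no fitted control array. It was at least 21.2-fold higher in Drosha-deleted cells, a bound for a probe detected through that group alone. Probes farther from the hairpin differed less. A probe centred 236 bases downstream of the hairpin's middle differed by 2.37 (adjusted p = 0.0755; 2.25 and adjusted p = 0.0118 in the authors' values) and one at 296 bases by 0.65. A probe 308 bases upstream differed by 0.08, one 3782 bases upstream by 0.18 and one 5410 bases downstream by 0.13. The probe 3782 bases upstream is the one that represents the region in the fit with 1 probe per region.

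**Figure D4:**
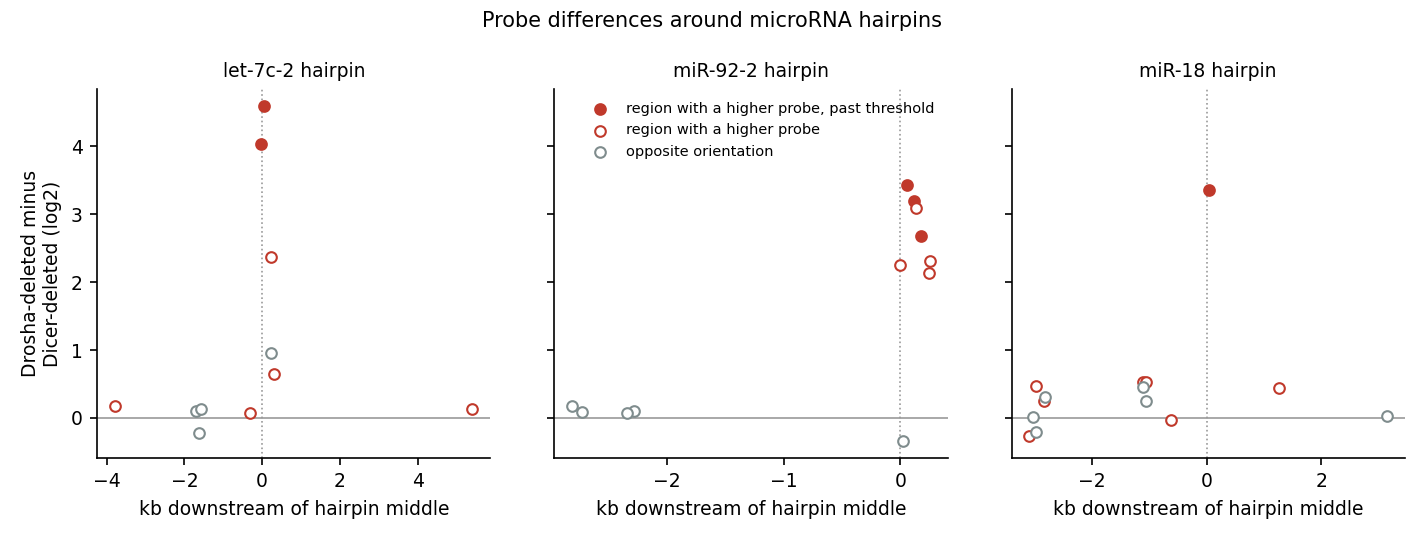
Drosha-deleted minus Dicer-deleted difference (log2) of probes against the distance in kb downstream of the middle of the let-7c-2, miR-92-2 or miR-18 hairpin, 1 panel each, with filled red points past the threshold and grey points from the opposite orientation. The 2 probes on the let-7c-2 hairpin stand at 4.03 and 4.60 and the probe 308 bases upstream at 0.08.

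On the X chromosome, the region chrX:50087925-50101700_R between Gpc3, a heparan sulphate proteoglycan, and Ccdc160 holds the cluster from miR-106a to miR-363, a paralogue of the miR-17 cluster. It entered by the controls alone. The probe on the miR-363 3′ arm, which holds miR-363-3p, stood at -1.83, -2.36 and -1.99 in Drosha-deleted samples. It stood at -4.84, -4.04 and -5.32 in Dicer-deleted ones and at -5.30 and -4.91 in the controls, a difference between deletions of 2.67. This probe was well above background on 1 Dicer-deleted array and on no fitted control array. It was detected through the Drosha-deleted group alone, so its difference is a description. The neighbouring probe on the 5′ side was at least 6.72-fold higher in Drosha-deleted cells. The probe at the 3′ end of miR-92-2 was at least 5.81-fold higher. Neither was well above background on any Dicer-deleted or fitted control array, so both had to differ. The other 4 probes of the cluster were also higher on average, by 2.14 to 3.09, without passing, and their Dicer-deleted samples spread widely: one that lies wholly within the miR-92-2 hairpin stood at -3.14, -4.96 and -6.62 in them.

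The region chrX:50400250-50410825_R between Hprt, a purine salvage enzyme, and Plac1 lies beside miR-322, miR-503, miR-351, miR-450 and miR-542. Its brightest differing probe, at chrX:50406515-50406574, stood at -3.31 and -2.30 in the controls, at 0.46, 0.10 and 0.41 in Drosha-deleted samples and at -2.60, -2.92 and -3.43 in Dicer-deleted ones (difference 3.31, adjusted p = 0.0114). The 2 other probes that passed differed by 2.80 (adjusted p = 0.0081) and 2.58 (adjusted p = 0.0103). All 5 tested probes lie close together in the middle of the region. The probe that represents the region, at chrX:50406967-50407026, differed by 1.13 (adjusted p = 0.275), with its Drosha-deleted samples still above all others, at -0.27, -0.60 and -0.24.

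The region beside miR-30b and miR-30d (chr15:68172597-68194740_R) lies between Zfat and Khdrbs3. Its probe at chr15:68172634-68172693 stood at -5.08 and -4.74 in the controls, at -0.49, -0.87 and -0.77 in Drosha-deleted samples and at -4.58, -5.03 and -4.53 in Dicer-deleted ones. The difference was 4.00 (SE 0.204, adjusted p = 0.00235), 16-fold, with control and Dicer-deleted samples overlapping. On Dicer-deleted replicate 2 it lay below the -4.85 of the let-7c-2 3′ arm probe, which was not well above background on that array. The difference may therefore be partly against signal at background, and the fold is a description. A probe at chr15:68173384-68173443 was at least 3.52-fold higher and was detected through the Drosha-deleted arrays alone, and one between them differed by 1.57 (adjusted p = 0.533).

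The region beside miR-221 and miR-222 (chrX:18734106-18744367_R), between Dipk2b and Chst7, had 3 tested probes that moved alike and did not pass. The probe that represents it stood at -0.31 and -0.02 in the controls, at 1.41, 0.77 and 1.54 in Drosha-deleted samples and at -0.19, -0.56 and -0.33 in Dicer-deleted ones. All 3 Drosha-deleted samples were above the rest. The 3 probes differed by 1.52 to 1.60 between the deletions (adjusted p 0.111 to 0.163), and by 1.43 to 1.61 in the authors' values, where the adjusted p was 0.0306 to 0.0442.

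The region chr14:115423660-115463160_R covers the miR-17 to miR-92-1 cluster, whose microRNAs are known to promote proliferation of blood cells, but is read from the strand opposite to the microRNA genes. Of its 8 tested probes 1 passed. That probe, of which 30 bases are complementary to the miR-18 hairpin, stood at -4.96 and -4.73 in the controls, at -0.33, -1.07 and -1.25 in Drosha-deleted samples and at -4.02, -4.15 and -4.54 in Dicer-deleted ones (difference 3.36, SE 0.269, adjusted p = 0.0081, 10.2-fold). The other 7 probes of that orientation differed by -0.26 to 0.53, and the tested probes of the opposite orientation, which is that of the microRNA genes, by -0.20 to 0.45. Mir17hg, the annotated host transcript of the cluster, stood at 3.06, 2.85 and 3.41 in Drosha-deleted samples and at 1.33, 1.18 and 1.20 in Dicer-deleted ones, with 0.89 and 2.11 in the controls. Its difference between deletions of 1.87 did not pass (adjusted p = 0.261). How the labelled target for the array keeps strand was not tested.

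Orientation could be followed in the other regions too. Of the 7 regions with a probe that was higher in Drosha-deleted cells, 5 have the orientation of the microRNA gene, 1 the opposite and 1, at miR-30b/miR-30d, has no strand in the table used. The opposite-orientation regions of 5 of the 7 held 24 tested probes, which differed by -0.34 to 0.98 with 0 past the threshold. A probe that is the reverse complement of 53 bases of the miR-92-2 hairpin differed by -0.34. Of the probes of the other strand that share bases with that hairpin, 1 differed by 3.44 and was detected through the Drosha-deleted group alone. The other differed by 2.26 without passing.

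With the regions described above included, 142 of the 1680 (8.45%) lie between the same 2 protein-coding genes as an intergenic microRNA gene. Of these 142, 6 (4.23%) had a difference above 1 between Drosha-deleted and Dicer-deleted cells and 0 one below -1. All 6 are regions already described above, so this count adds no further region. Of the other 1538 regions 3 (0.195%) were above 1 and 11 (0.715%) below -1. Over all features tested, 1.26% were above 1 and 0.695% below -1. The medians were close to each other, 0.06 near microRNA genes and 0.04 elsewhere. Of the 60 regions on the same strand as the microRNA gene 5 exceeded 1, all of them among these 6. Of the 49 on the opposite strand 0 did, with a highest value of 0.58. Most regions near a microRNA gene thus showed no difference of that size. The 12 brightest of the 142 had differences between -0.23 and 0.32, and none of the 12 passed.

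The 1 probe past the threshold downwards in Drosha-deleted against Dicer-deleted cells lies in chr12:77544397-77564122_F between Ppp1r36 and Plekhg3, in the interval that also holds the annotated gene Mir5135. The probe stood at -2.90 and -2.17 in the controls, at -6.07, -7.07 and -6.39 in Drosha-deleted samples and at -3.86, -4.13 and -4.29 in Dicer-deleted ones. It was well above background on no Drosha-deleted array and was at least 1.81-fold lower there than in Dicer-deleted cells. Since it was detected only through the groups where it is high, this is a description. In the authors' values the difference was -0.75 (adjusted p = 0.428). A second probe of the region differed by -1.95 (adjusted p = 0.483).

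Against the control, levels of the whole class depended on which control array was used. Relative to control 1 alone, the median of the 1680 regions was 0.05 higher in Drosha-deleted and 0.03 higher in Dicer-deleted cells, beside 0.02 and 0.04 over all features. Relative to control 3 alone the medians were 0.92 and 0.86, beside -0.05 and -0.04 over all features. Each of the 6 deletion arrays taken singly gave a median between -0.03 and 0.12 against control 1 and between 0.70 and 0.96 against control 3. In the authors' values the Drosha-deleted medians were 0.04 against control 1, 0.47 against control 2 and 0.39 against control 3. The Dicer-deleted medians were 0.03, 0.43 and 0.36 in the same order. In those values the deletion groups thus stood close to control 1 and above both other controls, so the shift was not particular to control 3. Short lincRNA regions that entered by both parts of the rule had a median of 0.73 against control 3 in either deletion.

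In scanner values, the offset from control 3 varied with the base composition of the probe and with its level. Deletion arrays were above control 3 by a median of 0.22 in the 17 regions whose probe holds under 35% G and C, by 0.41 at 35% to 45%, by 0.95 at 45% to 55% and by 1.10 at 55% or more. Over all features the same bins gave 0.02, -0.20, 0.12 and 0.55. By mean deposited log2 value, the medians of the long regions were -0.49 below 6 (24 regions), 0.88 at 6 to 8, 1.06 at 8 to 10 and 0.66 at 10 or more. Over all features they were 0.44, 0.51, -0.02 and -0.23. Fewer of the regions' probes were also well above background on control 3 (91.5%) than on the other arrays (96.0% to 99.8%). The part of base composition, level, slide or detection in the class shift was not tested. In bulk samples, fewer cells that express a transcript and less of it per cell cannot be told apart.

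**Figure D5:**
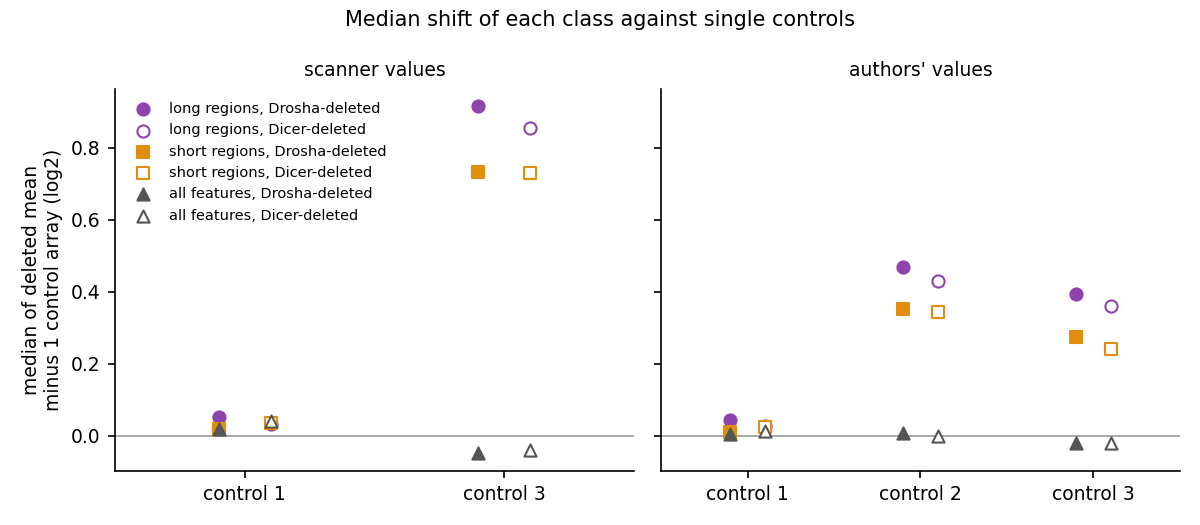
Median over long regions, short regions or all features of the mean of a deletion group minus 1 control array (log2), in scanner values and in the authors' values; filled marks are Drosha-deleted, open marks Dicer-deleted. Long regions are all that passed the detection rule, and short regions only those that entered by both parts of it. In scanner values long regions stand at 0.92 and 0.86 against control 3 and at 0.05 and 0.03 against control 1.

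With controls 1 and 3 together, Drosha-deleted cells had 3 long regions past the threshold upwards and 1 downwards, where 0.026% of all features were higher and 0.026% lower. In Dicer-deleted cells 0 were higher and 1 lower, where 0.00868% were higher and 0.0174% lower (limma). At an unadjusted p under 0.05, 368 of the 1680 (21.9%) were higher and 49 (2.92%) lower with Drosha deleted, beside 9.06% and 4.10% of all features. With Dicer deleted 275 (16.4%) were higher and 28 (1.67%) lower, beside 7.07% and 3.12%. These counts rest on the 2 controls. Without control 1, which leaves control 3 alone, 817 long regions (48.6%) passed with Drosha deleted and 747 (44.5%) with Dicer deleted, beside 25.7% and 22.4% of all features. Without control 3 they were 6 (0.357%) and 4 (0.238%), beside 0.148% and 0.109%. In the authors' values 6 long regions were higher in Drosha-deleted cells, where 0.122% of features were, and 2 in the comparison with Dicer-deleted cells, where 0.0434% were.

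Besides the miR-15a/16-1 and miR-101a regions, the third higher region was chr6:99472981-99484210_F between Foxp1, a transcription factor of blood cell development, and the translation initiation factor gene Eif4e3, with no microRNA gene between them. Its level was -4.17 and -4.67 in the controls, -2.47, -2.46 and -2.54 in Drosha-deleted samples and -2.91, -3.06 and -3.26 in Dicer-deleted ones. Both deletion groups lay above both controls. The Drosha-deleted minus control difference was 1.93 (SE 0.202, adjusted p = 0.0347), 3.81-fold, and 1.10 in the authors' values (adjusted p = 0.024). The Dicer-deleted minus control difference was 1.34 (adjusted p = 0.204) and that between the deletions 0.59 (adjusted p = 0.771).

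The region past the threshold downwards in both comparisons with controls 1 and 3 was chr16:86770170-86874921_R between Adamts5, a protease of the extracellular matrix, and N6amt1. It entered by the controls alone, a selection that favours a lower level on the deletion arrays, so its values are a description. Its probe stood at -3.94 and -4.37 in controls 1 and 3, at -7.28, -7.00 and -6.93 in Drosha-deleted samples and at -6.91, -6.87 and -6.93 in Dicer-deleted ones. It was not well above background on any deletion array, so it was at least 1.73-fold lower in Drosha-deleted and at least 1.84-fold lower in Dicer-deleted cells, each against controls 1 and 3. The authors' values include control 2, which stood at 5.22, within the 5.06 to 5.53 of the deletion arrays, while controls 1 and 3 stood at 6.29 and 6.43. With all 3 controls the authors' differences were -0.53 for Drosha (adjusted p = 0.246) and -0.81 for Dicer deletion (adjusted p = 0.179), neither past the threshold.

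Probe by probe, 17 of the 4002 tested probes, in 11 long regions, were higher in Drosha-deleted than in control cells, where 0.0889% of all probes were. Of the same 4002, 5 probes of 4 regions were lower, where 0.0413% were. In Dicer-deleted cells 2 probes were lower, where 0.019% were. Of the 17, 13 are among the 14 described above. The other 4 lie in 4 regions, and their Dicer-deleted samples were also above both controls: in chr4:119967625-119978325_R, for example, the probe stood at -2.51 and -2.43 in the controls, at -0.62, -0.92 and -0.91 in Drosha-deleted samples and at -1.09, -0.89 and -1.24 in Dicer-deleted ones (Drosha-deleted minus control 1.65, adjusted p = 0.0284). Among the lower probes, that of chr11:97457180-97487074_F between Srcin1 and Epop was at least 3.24-fold lower in Drosha-deleted and at least 3.44-fold lower in Dicer-deleted cells, each against controls 1 and 3. This region, too, entered by the controls alone, and that probe was well above background on no deletion array. Selection on the controls favours a lower level on the deletion arrays, so its values are a description.

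The length threshold itself did not mark a break in detection. The share of regions that passed the detection rule was 56.7% below 5 kb, 69.4% at 5 to 10 kb, 68.7% at 10 to 20 kb, 70.4% at 20 to 50 kb and 70.7% at 50 kb or more. The shortest regions hold fewer probes, a mean of 2.58 below 5 kb against 4.36 at 50 kb or more. Just inside the threshold lie 5 regions of 10000, 10000, 10025, 10032 and 10032 bases, and just outside it 5 of 9950, 9950, 9950, 9926 and 9875 bases. The median length of the 1680 regions was 25144 bases. The longest, chr3:34003359-34537330_F, spans 533971 bases between Dnajc19 and Sox2, a transcription factor of pluripotent and neural cells. It is followed by the 2 orientations of a region of 508114 bases between Prl5a1 and Sox4, a transcription factor of lymphoid progenitors. The 5 longest differed by -0.25 to 0.34 between the deletions, and none passed.

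Bright regions differed little between the deletions. The 10 regions with the highest mean deposited value, among them those between Tet3 and Dguok, between Akap11 and Dgkh and in both orientations between Dhrs7 and Ppm1a, had Drosha-deleted minus Dicer-deleted differences between -0.18 and 0.22, and none of the 10 passed. Across the 474 intervals with both orientations, the Drosha-deleted minus Dicer-deleted difference of 1 orientation had a Pearson correlation of 0.07 with that of the other, as a description over intervals measured on the same arrays. Among 605 regions with at least 3 tested probes, the median spread between a region's highest and lowest probe in this difference was 0.46. It exceeded 2 in 8 regions. The widest spreads were 4.52 in the let-7b/let-7c-2 region and 3.62 in that of miR-17 to miR-92-1.

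Named noncoding RNAs gave a further view of the same kind of transcript. Of 33 on a list of long noncoding RNAs and microRNA hosts, 23 were tested and 0 passed in any comparison of scanner values (limma). At an unadjusted p under 0.05 there were 9 against control in Drosha-deleted cells, 1 in Dicer-deleted cells and 9 between the deletions, where 13.2%, 10.2% and 4.57% of all features stood at such a p in either direction. In the authors' values 1 passed between the deletions and 1 between Drosha-deleted and control cells: Mir22hg, the host of miR-22. It stood at 0.03, -0.13 and -0.72 in Drosha-deleted samples, at -2.08, -2.82 and -2.41 in Dicer-deleted ones and at -2.22 and -2.20 in controls 1 and 3 (difference between deletions 2.16, adjusted p = 0.078 in scanner values; 1.92, adjusted p = 0.0274 in the authors'). Dleu2, the host of miR-15a/16-1, differed by 1.09 between the deletions (adjusted p = 0.344).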

How the data were processed

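RNA of 9 LSK samples was labelled with Cy3 on 1-colour Agilent arrays. Signals were extracted with Agilent Feature Extraction 10.7.3.1, per the file headers. The deposited spot intensities (background-subtracted processed signal) of 8 arrays were used as log2 less each array's 75th percentile. The authors also deposited a log2 value per spot for all 9 samples, whose normalization is not given in the sources used here (limma is named in the submitters' processing notes). Group means were fitted with limma 3.58.1 (R 4.3.3; lmFit, eBayes) to 23034 genes and regions detected in a whole group, and p-values adjusted (Benjamini-Hochberg) over all of them. The fit was tested on simulated data.

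Members, lists and named regions were chosen with earlier results of these data known. Named were regions past the threshold, the brightest, the longest and those nearest the limits, and bright regions near microRNA genes. The fit on 31510 single probes was chosen after the data had been seen. Neighbouring genes come from RefSeq order on GRCm38.p6, matched by symbol without converting coordinates, and hairpins were placed on mm9 through shared probe sequence of at least 20 bases. The number of arrays limits precision.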

Additional observations from a re-analysis of the deposited data

Results flagged for a closer look

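Contrasts against the same control differed between the deletions in a pair of regions. In chr14:62254361-62301162_R, beside miR-15a/16-1, the difference against control was 2.39 for Drosha and -0.21 for Dicer deletion, and the test of the difference itself gave 2.59 (limma, adjusted p = 0.0155; higher in 3 of 3 Drosha-deleted samples than in every Dicer-deleted one). In chr4:101010948-101032148_R, beside miR-101a, the values were 2.65 and -0.30, with a difference of 2.95 (adjusted p = 0.0196, with 3 of 3 Drosha-deleted samples again above every Dicer-deleted one). These are the comparisons described above, with the same limits.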

How the results depend on the processing

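The counts of regions past the threshold (limma) were 4 for Drosha deletion and 1 for Dicer deletion, each against control, and 2 between the deletions, and no direction reversed under the alternatives run. In that order they were 0, 0 and 1 with all 9 scanner arrays (407, 285 at an unadjusted p under 0.05 for the counts of 0), 6, 0 and 2 with the authors' 9 columns (584 unadjusted), 2, 0 and 2 with the authors' values without control 2 (269), 2, 0 and 2 with normexp and quantile normalization (260), 3, 2 and 2 with each array's median subtracted and 1, 1 and 0 with no filter on detection (39). The mean over detected probes gave 5, 1 and 4, the slide as a block 6, 4 and 2, and each probe as its own feature 15, 2 and 8 regions. Leaving out 1 array at a time gave 0 to 817, 0 to 747 and 0 to 2, and in the authors' values without control 1 or 3 the ranges were 2 to 862, 0 to 796 and 2 to 2. The highest values came without control 1, which in scanner values leaves control 3 as the lone control, assumed to vary like the other groups, and in the authors' values leaves controls 2 and 3. The cause of the other changes was not tested.

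Deviations of same-numbered samples from their group means had correlations of -0.219, -0.0639 and -0.140 between Drosha-deleted and Dicer-deleted samples. Against same-numbered controls they were 0.103 and 0.0968 for Drosha-deleted and -0.250 and -0.252 for Dicer-deleted samples. Centring within such small groups ties the deviations together, so these values cannot decide whether the numbers pair the samples. With the replicate block the counts were 0, 0 and 0 (255, 197 and 36 at an unadjusted p under 0.05), and 1 of the 14 higher probes passed. Among those 14, all differences stayed above 0 and between 12 and 14 passed under the other settings that keep every deletion array. Signal near background limits the probes seen only in Drosha-deleted cells.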

Other observations

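Beside miR-29a and miR-29b-1, microRNAs known in blood stem cells, the region chr6:30983012-31009987_R between Klf14 and Mkln1 had probes of both kinds without any passing. Its probe at chr6:31001302-31001361 stood at -5.88 and -6.29 in controls 1 and 3, at -3.81, -3.96 and -2.28 in Drosha-deleted samples and at -5.15, -5.78 and -4.88 in Dicer-deleted ones. The Drosha-deleted samples were all above the rest (difference between deletions 1.92, limma on each probe, adjusted p = 0.506). The probe that represents the region, at chr6:30999221-30999280, differed by -0.11 between the deletions, with Drosha-deleted samples at -3.96, -3.91 and -4.31 and Dicer-deleted ones at -4.21, -3.85 and -3.79.

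Among the 1538 regions not near a microRNA gene, 14 differed by more than 1 in size between the deletions, 3 upwards and 11 downwards, and none passed (lowest adjusted p = 0.411). Of these 14 regions 10 entered by the controls alone. Among the lower ones were 2 overlapping regions between Lhfpl3 and Kmt2e, a chromatin regulator of blood stem cells, whose differences were -1.02 and -1.01 (adjusted p = 0.762 and 0.548). They share sequence and are not independent.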
